A study of Mus musculus with 2 samples.

Results

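Expression of 44 collagen genes was followed across neurons of the mouse PVH, the paraventricular nucleus of the hypothalamus, whose neurons govern feeding and hormone output of the pituitary. They were all gene rows with a symbol made of Col, a number, the letter a and a number, 44 of 31053 gene rows. Single-nucleus RNA sequencing had been done on 1 droplet library that pooled nuclei of 17 mice aged 4 weeks, and short antibody-borne barcodes (hashtags) marked 3 pools of mice within it. All mice carried Sim1-Cre, which is active in the Sim1 lineage that builds most of the PVH, and Sun1-GFP, a nuclear-envelope reporter of cells that have had Cre activity. The hashtag named KD was matched by elimination alone to 4 Otp fl/+ mice, which carry a floxed allele of the transcription factor gene Otp. The hashtag Q153R was taken for 6 Otp Q153R/+ mice, and Ctrl for 7 mice with Sim1-Cre and Sun1-GFP alone. Nuclei of the mice within a pool could not be separated, so each pool is 1 sample and differences were not tested against the spread between mice. Ranges in brackets are 95% intervals that reflect the counting of molecules alone.

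Collagens are triple-helical proteins of the extracellular matrix. Fibrillar types form cables, type IV builds the sheet-like network of basement membranes, fibril-associated types bind to the surface of fibrils, and a small set of transmembrane types is anchored in the cell membrane and can be shed. Fibroblasts and vessel cells make most collagen of the brain, but neurons also transcribe collagen genes. In the mouse some of these act at synapses or on growing axons, such as Col19a1 in interneurons and Col25a1 in muscle innervation.

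Neurons were sorted into 6 overlapping classes by UMIs, the count of distinct captured RNA molecules. The thresholds were 10 UMIs of Oxt (oxytocin), 10 of Avp (vasopressin), 2 of Crh (corticotropin-releasing hormone), 2 of Trh (thyrotropin-releasing hormone), 4 of Sst (somatostatin) and 3 of Gad1, Gad2 and Slc32a1 together (GABA, the main inhibitory transmitter). Of 6173 barcodes, 6157 passed filters and 4904 carried exactly 1 hashtag: 1347 labelled KD, 1591 labelled Q153R and 1966 labelled Ctrl, with medians of 5941, 4638 and 5344 UMIs. The classes held 154 Oxt, 227 Avp, 210 Crh, 348 Trh, 302 Sst and 366 GABA nuclei, and 3381 nuclei met no threshold. Many Crh, Trh and GABA nuclei lay near the limit: 141 of 210, 248 of 348 and 275 of 366 held less than 2 times the threshold. Otp, the altered gene, stood at 75.7 CPM (70.0–81.8) in KD-labelled nuclei and 112 CPM (104–119) in Q153R-labelled nuclei, against 45.7 CPM (41.8–49.8) in Ctrl-labelled nuclei. It was thus not lower under the label KD, and directions between pools below are those of the labels alone.

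Collagen transcripts were frequent in these nuclei. A level is given as CPM, the gene's UMIs per 1000000 UMIs of all genes in the group. All 44 collagens had at least 1 UMI, 87.1% of nuclei held a collagen UMI, and collagens summed to 23027 UMIs or 829 CPM. The transmembrane collagen Col25a1, known for a shed fragment found in amyloid plaques, made up 51.3% of them. Its gene spans 468 kb, and long genes collect more reads from introns in nuclear RNA. Per kb of gene span, Col25a1 stood at 0.908 CPM, Col4a2 at 0.695, Col11a2 at 0.602, Col9a2 at 0.474 and Col18a1 at 0.358, so its lead was much smaller on that scale. Per kb of exon it stayed larger, with Col25a1 at 32.9, Col4a2 at 14.3, Col18a1 at 5.83 and Col11a2 at 2.39 CPM. Whether introns were counted is not known, so neither scale can be preferred.

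Depth decided which collagens could be described. Of the 44, 21 had at least 100 UMIs: 5 of 11 fibrillar, 4 of 9 network, 2 of 6 beaded-filament, 5 of 9 fibril-associated, 2 of 4 transmembrane and both multiplexin genes, and Col26a1. The collagens that dominate connective tissue were among the lowest. Col1a1 and Col3a1 had 6 UMIs each, Col10a1 had 11, Col17a1 had 14, Col5a3 had 18 and Col7a1 had 19.

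**Figure D1:**
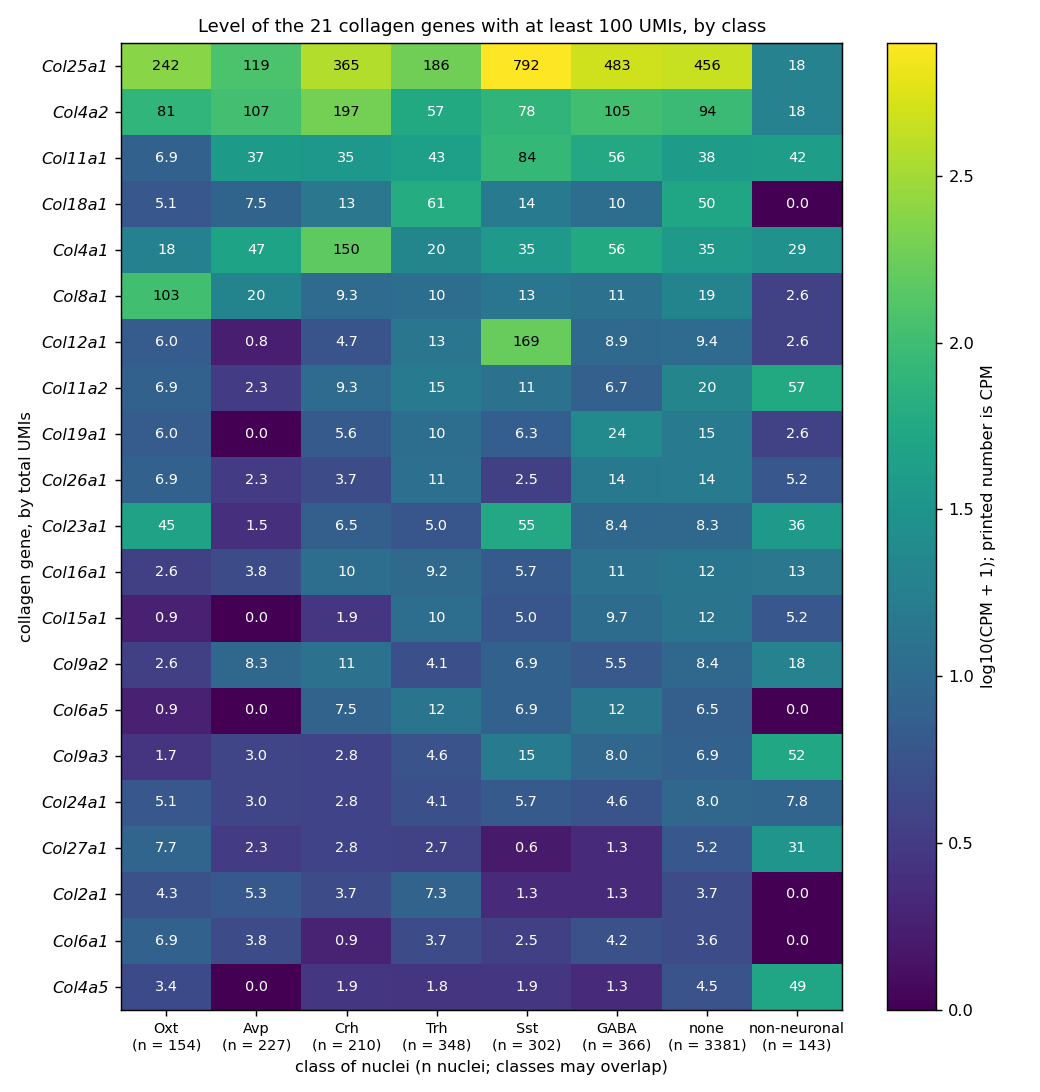
Level in CPM (printed number) of the 21 collagen genes with at least 100 UMIs, in the 6 neuron classes, in nuclei that met no class threshold and in nuclei with non-neuronal markers; colour is log10(CPM + 1). Levels compare along a row and not between genes of different length. Single classes stand out for Col12a1 (Sst, 169 CPM), Col8a1 (Oxt, 103 CPM) and Col4a1 (Crh, 150 CPM).

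Promoter sequences are shown for the genes with the most UMIs and for the pair that was high together. Each window holds 250 bases before and 50 after the start of the gene in the RefSeq annotation of GRCm38.p6, and 35 of the 44 collagens had one. Col4a1 (chr8:11312777-11313076, minus strand) and Col4a2 (chr8:11312555-11312854, plus strand) start head to head, and capitals mark the 78 bases that both windows share. The windows were rich in G and C, 74.0% for Col4a1 and 73.7% for Col4a2, against a median of 52.7% over 32851 windows. In the window of Col25a1 (chr3:130180595-130180894, plus strand) capitals mark ATGCAAAT, the octamer that POU-domain factors bind, and its variant ATGCTAAT, searched on both strands without overlap.
Col4a1: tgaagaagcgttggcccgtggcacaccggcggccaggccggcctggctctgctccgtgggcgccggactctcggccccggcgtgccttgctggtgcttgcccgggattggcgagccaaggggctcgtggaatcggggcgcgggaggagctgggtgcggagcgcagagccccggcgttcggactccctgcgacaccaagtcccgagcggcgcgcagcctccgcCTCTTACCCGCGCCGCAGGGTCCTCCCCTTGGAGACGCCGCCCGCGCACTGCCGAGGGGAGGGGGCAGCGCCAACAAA
Col4a2: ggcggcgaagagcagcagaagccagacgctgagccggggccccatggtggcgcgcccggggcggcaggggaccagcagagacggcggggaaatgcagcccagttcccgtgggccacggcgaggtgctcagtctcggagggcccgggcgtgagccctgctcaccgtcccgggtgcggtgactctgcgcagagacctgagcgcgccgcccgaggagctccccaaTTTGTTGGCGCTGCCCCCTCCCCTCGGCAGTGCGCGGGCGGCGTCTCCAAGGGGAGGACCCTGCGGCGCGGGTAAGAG
Col25a1: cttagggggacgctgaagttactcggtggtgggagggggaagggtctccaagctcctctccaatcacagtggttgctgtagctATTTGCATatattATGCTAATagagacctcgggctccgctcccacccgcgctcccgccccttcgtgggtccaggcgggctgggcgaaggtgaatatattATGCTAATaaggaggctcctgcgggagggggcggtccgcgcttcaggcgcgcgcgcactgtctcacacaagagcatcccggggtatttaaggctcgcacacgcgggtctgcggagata

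The RefSeq start of Col25a1 lies inside the gene span given by GENCODE. The Col25a1 window held 1 octamer on the reverse strand, 167 bases before the start, and 2 copies of the variant, 154 and 68 bases before it. Of all windows, 1.74% held ATGCAAAT and 0.919% held ATGCTAAT, and 7 windows (0.0213%) held 3 or more such matches together. These motifs were chosen after the sequence had been seen, and a match is a description of letters, not of a binding site. The Col4a1 and Col4a2 windows held neither motif, each held CCAAT on 1 strand (37.4% of all windows), and TATAAA was not among the letters of any of the 3 (13.6% of all windows).

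Sst neurons held the largest ratio of any collagen among the 6 classes, 20.4 for Col12a1. Sst encodes somatostatin, which in the hypothalamus restrains growth hormone release. A collagen was compared where its UMIs times the share of all UMIs in the class came to at least 10, and was called at a ratio of 2 or more, or 0.5 or less, of its level in the class over that in all other nuclei. The UMIs of the class itself count, so a gene can pass this limit through the class in which it is high. All genes were held to the same limit. Of 17 collagens compared in Sst nuclei, 4 were called higher (1.33% of all genes tested were) and 4 lower (5.45% of all genes). The median log2 ratio was -0.26 for the 17 collagens and -0.02 for all genes tested.

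Col12a1, a fibril-associated collagen of tendon, muscle and bone, stood at 99.3 CPM in KD-labelled, 192 CPM in Q153R-labelled and 193 CPM in Ctrl-labelled Sst nuclei. In all other nuclei it stood at 5.88, 9.55 and 9.24 CPM in the same pools. The class stood far above the rest within each pool. Over the pools the level was 169 CPM (149–190) in Sst nuclei, against 8.28 CPM elsewhere, a ratio of 20.4 (16.98–24.5). The next class, Trh, stood at 12.8 CPM (8.52–18.5) and Avp nuclei held 1 UMI, so that Sst was separated from every other class by more than counting error. After each nucleus had been thinned to 2338 UMIs, 26.4% of Sst nuclei (21.4–32.0) held a Col12a1 UMI (41.4% before thinning), against 1.91% of nuclei of no class and 1.37% of non-neuronal nuclei, whose median depth was 2400 UMIs, against 4505.5 in Sst nuclei. In droplet data free RNA can give UMIs in cells that do not express a gene. Levels differed within the class: the 30 Sst nuclei that also met the GABA threshold stood at 24.9 CPM (8.08–58.1), against 189.6 CPM (167–214) in the other 272. Of 53 nuclei with 3 or more Col12a1 UMIs, 34 were Sst nuclei of no other class.

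Col23a1, a transmembrane collagen that can be shed, was the second mark of Sst nuclei. It stood at 34.8 CPM in KD-labelled, 46.8 CPM in Q153R-labelled and 71.3 CPM in Ctrl-labelled Sst nuclei, against 5.51, 7.83 and 12.9 CPM in all other nuclei of these pools. The ratio over all pools was 6.08 (4.70–7.79). Non-neuronal nuclei held Col23a1 at 36.3 CPM (19.9–60.9), so Sst nuclei, at 55.4 CPM (44.5–68.3), were not separated from them.

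The other collagens called higher in Sst nuclei showed smaller ratios. Col11a1, a fibrillar collagen of cartilage, had a ratio of 2.16 (1.79–2.59), with 89.4, 91.2 and 76.6 CPM in KD-, Q153R- and Ctrl-labelled Sst nuclei. Col9a3, a chain of the fibril-associated type IX, had a ratio of 2.42 (1.504–3.72) on 24 UMIs, and ratios of 1.59 in KD-labelled, 4.81 in Q153R-labelled and 1.61 in Ctrl-labelled nuclei, so that the call came from the Q153R label. Col9a3 passed the limit of 10 only through its Sst UMIs, as its level in all other nuclei would not have reached it. The Col11a1 and Col9a3 ratios fell short of 2 when the Sst threshold was doubled, at 1.67 and 1.98. Col25a1 was highest in Sst nuclei of all classes, at 792 CPM (749–837), without reaching the ratio of 2 over all other nuclei. Against the other 5 classes alone it was called higher, at 2.98 (2.76–3.22), as 1.67% of all genes were. Called lower were Col26a1 (0.194), Col18a1 (0.341), Col19a1 (0.455) and Col15a1 (0.485). Set against the other 5 classes alone, Col18a1 stood at 0.507 and Col15a1 at 0.735.

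Markers of collagen-making cells were counted in Sst nuclei. Of 5 leptomeningeal fibroblast markers, Dcn, Lum, Slc6a13 and Igf2 were at 0 and all 65 UMIs came from Bmp6, which gives the list 40.9 CPM there, against at most 5.998 CPM in the other classes. Endothelial markers summed to 6.93 CPM, with Cldn5 and Ly6c1 at 0, and mural cell markers to 18.3 CPM, with Vtn at 0. The ranges over the 6 classes were 6.01 to 8.70 CPM for endothelium and 18.3 to 34.3 CPM for mural cells. The part of Bmp6-expressing cells in the Sst values was not tested.

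Oxytocin neurons were marked by Col8a1 and Col23a1. Of 13 collagens compared in Oxt nuclei, 2 were called higher (2.71% of all genes tested) and 8 lower (6.45% of all genes). The median log2 ratio was -1.20 for collagens and 0.01 for all genes. Col8a1, a short-chain network collagen of vessel walls and the cornea, stood at 102 CPM in KD-labelled, 137 CPM in Q153R-labelled and 84.6 CPM in Ctrl-labelled Oxt nuclei. All other nuclei stood at 17.7, 20.4 and 14.5 CPM in these pools. The ratio was 5.99 (4.86–7.34), and it lay between 5.75 and 6.73 within the pools. Avp nuclei, the closest neuroendocrine class, stood at 19.5 CPM (12.8–28.6), near the 19.4 CPM of nuclei of no class. After thinning, 21.1% of Oxt nuclei (14.8–28.6) held a Col8a1 UMI (39.6% before thinning), and 0 of 73 non-neuronal nuclei did, which at 3 counts allows a share of up to 4.11% (1 of 143, 0.699%, before thinning).

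Col23a1 differed by label among oxytocin neurons. It had 0 UMIs in 37 KD-labelled Oxt nuclei, 14 UMIs or 45.7 CPM in Q153R-labelled nuclei and 39 UMIs or 70.2 CPM in Ctrl-labelled nuclei. In all other nuclei it stood at 7.14, 8.49 and 14.02 CPM. The ratio over all pools was 4.41 (3.22–5.94), and it came from the Q153R and Ctrl labels alone, with ratios of 5.39 and 5.01. Among Oxt nuclei of no other class, a floor of 3 UMIs in KD-labelled nuclei corresponds to 10.7 CPM, which is at least 7.20-fold lower than the 77.3 CPM of Ctrl-labelled nuclei. Q153R-labelled nuclei of that kind stood at 47.3 CPM (25.2–80.8). Col8a1 had 28 UMIs in the same KD-labelled nuclei. The cause of the difference in Col23a1 was not tested.

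The collagens called lower in Oxt nuclei included Col15a1 with 1 UMI (ratio 0.0818, 0.00206–0.459), Col18a1 (0.121), Col11a1 (0.160), Col16a1 (0.231), Col12a1 (0.334), Col11a2 (0.407), Col19a1 (0.436) and the basement membrane chain Col4a1 (0.457). Col11a2 stood at 0.521 against the other 5 classes alone. Of the 7 Col12a1 UMIs, 5 came from 1 nucleus.

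Vasopressin neurons had the lowest summed collagen level of the 6 classes, 392 CPM (359–427), against 829 CPM over all nuclei, and 272 CPM, against 403 CPM, without Col25a1. None of the 14 collagens compared was called higher (2.4% of all genes tested were), and 9 were called lower (9.84% of all genes), with a median log2 ratio of -2.19, against -0.02 over all genes. Col25a1 stood at 153.4 CPM in KD-labelled, 95.4 CPM in Q153R-labelled and 107 CPM in Ctrl-labelled Avp nuclei, against 424, 478 and 427 CPM in all other nuclei. Its ratio was 0.271 (0.230–0.317), and 29.5% of Avp nuclei held a UMI of it, the lowest share of the 6 classes. Col19a1, which in the mouse helps inhibitory nerve terminals form, and Col15a1, a multiplexin of basement membranes, had 0 UMIs among 1330634 UMIs. With a floor of 3 UMIs they were at least 6.25-fold and 4.69-fold lower than in all other nuclei, at 14.1 and 10.6 CPM. Col12a1 had 1 UMI (0.0411, 0.00104–0.230), Col23a1 had 2 (0.122, 0.0148–0.446), and Col11a2 and Col26a1 had 3 each. Col18a1 and Col16a1 had ratios of 0.176 and 0.338. Other abundant collagens were not low in Avp nuclei: Col4a2 had a ratio of 1.14 (0.956–1.35), Col4a1 of 1.22 (0.932–1.58) and Col11a1 of 0.887 (0.652–1.18).

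Avp and Oxt nuclei thus shared low values of Col11a2, Col12a1, Col15a1, Col16a1, Col18a1 and Col19a1, with the rest of the nuclei as a common base. Collagens whose intervals did not overlap between these classes are given by level. The share of all genes without such overlap was not computed, so no trait of collagens is read from them. Col23a1 stood at 45.4 CPM (34.0–59.4) in Oxt nuclei and 1.503 CPM (0.182–5.43) in Avp nuclei, and Col8a1 at 103 and 19.5 CPM. Col25a1 stood at 242 CPM (214–272) in Oxt and 119 CPM (102–140) in Avp nuclei, and Col6a2 at 10.3 CPM in Oxt nuclei with 0 UMIs in Avp nuclei. The other two ran the other way: Col11a1 at 6.86 CPM (2.96–13.5) in Oxt and 36.8 CPM (27.2–48.7) in Avp nuclei, and Col4a1 at 17.99 and 46.6 CPM.

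Crh neurons were marked by both genes of the Col4a1 and Col4a2 pair, whose chains join in a heterotrimer of the basement membrane. Of 13 collagens compared, these 2 were called higher (3.83% of all genes tested) and 6 lower (14.4% of all genes). The median log2 ratio was -0.88 for collagens and -0.25 for all genes tested. Col4a1 stood at 176 CPM in KD-labelled, 105 CPM in Q153R-labelled and 161 CPM in Ctrl-labelled Crh nuclei, against 34.0, 36.7 and 32.0 CPM in all other nuclei. The ratio was 4.42 (3.71–5.23). Col4a2 stood at 209.8 CPM in KD-labelled, 199 CPM in Q153R-labelled and 188 CPM in Ctrl-labelled Crh nuclei, against 89.1, 92.2 and 91.2 CPM, with a ratio of 2.17 (1.87–2.49). Crh nuclei stood above the rest under each label for both genes. After thinning, 22.7% of Crh nuclei (16.99–29.2) held a Col4a1 UMI, against 7.17% of nuclei of no class and 1.37% of non-neuronal nuclei. The shares before thinning were 38.6%, 14.3% and 7.69%.

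Vessel cells are a major source of type IV collagen, and their markers were counted beside these values. Endothelial markers summed to 7.46 CPM in Crh nuclei, within 6.01 to 8.70 CPM over the 6 classes, and Flt1, Cldn5 and Ly6c1 were at 0. Mural cell markers summed to 30.8 CPM with all 5 detected, within 18.3 to 34.3 CPM over the classes, and all 5 fibroblast markers were at 0. The part of mural cell RNA in the result was not tested. Col4a1 was also present in Crh nuclei without a Sim1 UMI (180 CPM, 138–230) and with one (136 CPM, 110–165). The genes overlap by their first bases on opposite strands, and an antisense gene overlaps each of them. Whether counting used strand is not given in the sources used here, so reads near the shared start cannot be assigned with certainty.

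The pair also occurred together in single nuclei. Among 4413 nuclei thinned to equal depth, 101 held UMIs of both, where 68.0 would be the product of their shares. The odds ratio was 1.77 (1.37–2.28), and it was 1.59 within class strata. This was 1 of 28 pairs among the 8 collagens with the most UMIs, which share nuclei and depth. Other pairs above 1 were Col11a1 with Col12a1 (1.898, 1.09–3.14) and Col25a1 with Col12a1 (1.504, 1.06–2.13), at 1.31 and 0.925 within class strata. Pairs with fewer shared nuclei than the product of their shares were Col4a1 with Col11a2 (0.382, 0.121–0.921), Col4a2 with Col8a1 (0.572, 0.327–0.947) and Col25a1 with Col11a1 (0.673, 0.523–0.861).

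Called lower in Crh nuclei were Col15a1 (0.179), Col12a1 (0.260), Col26a1 (0.293), Col18a1 (0.311), Col19a1 (0.407) and Col8a1 (0.440). At a doubled Crh threshold 1 collagen was called lower, where fewer nuclei and UMIs remained, and likewise 1 among nuclei with at least 5000 UMIs. The share of all genes called was not computed at these settings. The Col19a1 ratio was 0.959 as a mean of CPM over nuclei, and Col8a1 stood at 0.678 among nuclei with at least 5000 UMIs. Against the other 5 classes alone, 2 of 8 collagens were called higher (4.46% of all genes), Col4a1 (4.46, 3.56–5.57) and Col4a2 (2.596, 2.19–3.07), and 3 lower (15.1% of all genes). Col18a1 stood at 0.646 and Col19a1 at 0.511 there.

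**Figure D2:**
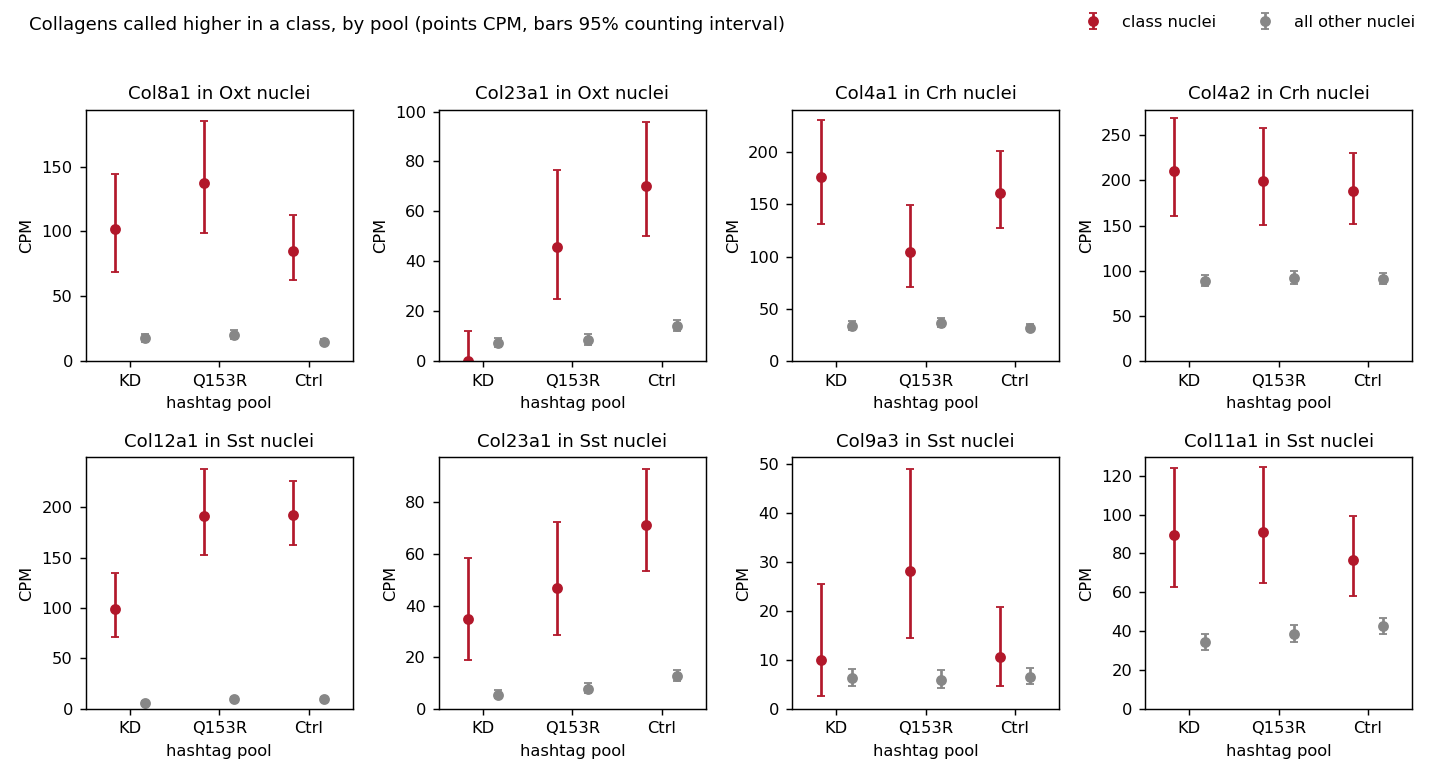
Level in CPM for the 8 pairs of a collagen and a class in which it was called higher (Col23a1 in both Oxt and Sst nuclei), in class nuclei (red) and all other nuclei (grey), for the KD, Q153R and Ctrl labels; points are summed levels and bars are 95% Poisson intervals. Class nuclei lie above the rest under each label, except Col23a1 in KD-labelled Oxt nuclei, which had 0 UMIs, and Col9a3, whose bars overlap under the KD and Ctrl labels.

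Trh and GABA neurons had no collagen called higher over all other nuclei, but 3 each over the other 5 classes. In Trh nuclei 17 collagens were compared, 0 were higher (0.911% of all genes tested were) and 3 were lower (2.48% of all genes). Col25a1 stood at 234 CPM in KD-labelled, 169 CPM in Q153R-labelled and 174 CPM in Ctrl-labelled Trh nuclei, against 421, 486 and 437 CPM, with a ratio of 0.417 (0.377–0.461). Col23a1 (0.408) and Col8a1 (0.465) were the others, and Col8a1 stood at 0.584 with the Trh threshold doubled. Col18a1, the precursor of the angiogenesis inhibitor endostatin, stood at 60.9 CPM (51.0–72.2) in Trh nuclei, the highest of the 6 classes, where the others lay between 5.14 and 14.5 CPM.

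A Sim1 UMI was held by 29.2% of GABA nuclei, against 66.2% of all nuclei, so most GABA nuclei showed no Sim1 transcript. In GABA nuclei 18 collagens were compared, 0 were higher (0.629% of all genes tested) and 4 were lower (2.6% of all genes). The collagens called lower were Col18a1 (0.231, 0.147–0.346), Col27a1 (0.277), Col11a2 (0.390) and Col12a1 (0.485). Against the other 5 classes alone, Col27a1 stood at 0.606 and Col11a2 at 0.700. Col19a1 stood at 23.6 CPM (17.8–30.7) in GABA nuclei, the highest of the 6 classes, with values of 24.6 and 23.2 CPM in those with and without a Sim1 UMI. When nuclei of exactly 1 class were set against those of the other 5 classes, 3 of 16 collagens were called higher in Trh nuclei (2.57% of all genes tested): Col18a1 (5.87, 4.33–8.01), Col6a5 (2.18, 1.26–3.69) and Col11a2 (2.16, 1.31–3.52), while 5 were lower (3.4% of all genes). In GABA nuclei 3 of 16 were (2.04% of all genes): Col19a1 (4.47, 2.91–6.94), Col26a1 (2.65, 1.61–4.34) and Col15a1 (2.56, 1.42–4.59), while 4 were lower (3.99% of all genes). Of these, Col15a1 passed the limit of 10 only through its UMIs in GABA nuclei.

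Less abundant collagens are given by their levels. Col6a5 had 0 UMIs in Avp and 1 in Oxt nuclei, and stood at 12.2 CPM (8.19–17.5) in GABA and 11.9 CPM (7.78–17.4) in Trh nuclei. Col15a1 stood at 9.69 CPM in GABA and 10.1 CPM in Trh nuclei, near its 10.1 CPM over all nuclei, and Col26a1, which has an EMI domain beside its short collagen stretch, at 13.9 CPM (9.57–19.5) in GABA nuclei. Col16a1 was highest in GABA nuclei, at 10.96 CPM, and lowest in Oxt nuclei, at 2.57 CPM. For Col9a2, Col24a1, Col27a1, Col2a1, Col6a1 and Col4a5 no class held more than 16 UMIs, and the levels lay between 0 and 11.2 CPM.

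The order of the classes differed from gene to gene. For Col25a1 it ran from Sst (792 CPM) through GABA (483), Crh (365), Oxt (242) and Trh (186) to Avp (119), and the intervals of neighbours did not overlap. For Col4a1, Crh (150 CPM) led, GABA (56.5) and Avp (46.6) overlapped each other, Avp and Sst (35.3) overlapped too, and so did Sst with Trh (20.2) and Trh with Oxt (17.99), the lowest. For Col23a1, Sst (55.4) and Oxt (45.4) overlapped and stood above GABA (8.43), Crh (6.53), Trh (5.04) and Avp (1.503).

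Marks changed with the amount of the class gene. Col12a1 stood at 7.32 CPM in nuclei with no Sst UMI and 11.8 CPM below the Sst threshold. It reached 137, 179 and 193 CPM at 1 to 2, 2 to 4 and at least 4 times the threshold, so the step lay at the threshold. For Col4a1 the values ran more evenly: 31.8 CPM with no Crh UMI, 63.2 CPM with a single one, and 136, 169 and 220 CPM in the bins above, of which the last held 10 nuclei. Col8a1 stood at 15.5 and 18.8 CPM in nuclei without Oxt UMIs and below the threshold, and at 49.8, 119 and 109 CPM above it. Col11a1 ran the other way within the Sst class, with 119, 74.1 and 52.5 CPM in the bins above the threshold.

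**Figure D3:**
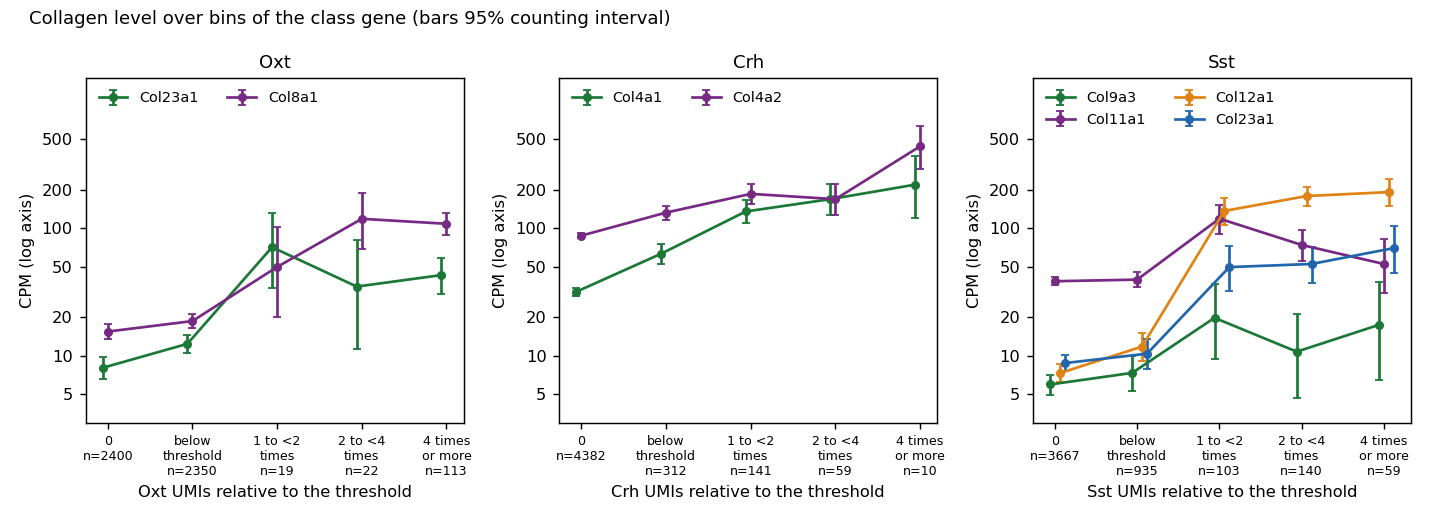
Level (CPM, log axis) of the collagens called higher in Oxt, Crh and Sst nuclei over bins of the class gene's UMIs relative to the class threshold; points are summed levels, bars 95% Poisson intervals, and n is the number of nuclei. Col12a1 steps up at the Sst threshold, while Col4a1 is already higher below the Crh threshold.

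Nuclei of no class, which include nuclei with non-neuronal markers, held 70.2% of collagen UMIs and 67.3% of all UMIs. Their part was 72.3% for Col25a1 and 82.2% for Col18a1, but 47.4% for Col23a1 and 36.3% for Col12a1. A set of 14 other genes, known from earlier results of these data to differ between PVH neurons, was also used, each at 2 or more UMIs. Col18a1 was called higher with 4 of the 14, and Col8a1 with 2. In 54 nuclei with Bnc2, a zinc-finger factor, it was the 1 collagen of 5 called higher (1.33% of all genes tested) and stood at 300.04 CPM, against 36.8 CPM elsewhere, a ratio of 8.16 (6.75–9.80). In 187 nuclei with Ebf2, a factor of the early B-cell factor family, 4 of 15 were called higher (1.05% of all genes). Col18a1 led with 194 against 32.4 CPM (5.99, 5.22–6.86), followed by Col8a1 (2.36), Col11a2 (2.27) and Col16a1 (2.01).

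The related Ebf1 marked 755 nuclei, where 3 of 27 collagens were called higher (1.27% of all genes): Col18a1 (3.71, 3.30–4.18), Col6a5, a beaded-filament chain (2.45, 1.80–3.32), and Col2a1, the main fibrillar collagen of cartilage (2.27, 1.48–3.43). Col18a1 ratios lay between 3.03 and 9.33 in the 3 pools for these genes. Called lower were Col11a1 (0.109, its 2 UMIs in 1 nucleus) and Col4a1 (0.235) with Bnc2 (6.14% of all genes), Col23a1 (0.223), Col12a1 (0.264) and Col19a1 (0.344) with Ebf2 (4.1% of all genes), and Col23a1 (0.351) and Col6a2 (0.359) with Ebf1 (3.22% of all genes). Nuclei can hold several of these factors, so the 3 sets overlap. An antisense gene, Slc19a1, overlaps Col18a1.

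Ucn3, a peptide of the corticotropin-releasing hormone family, marked 59 nuclei in which 2 of 5 collagens were called higher (1.82% of all genes) and 2 lower (6.07% of all genes). Col18a1 stood at 169 CPM, against 38.8 CPM elsewhere, a ratio of 4.35 (3.39–5.50), and Col11a1 at 119 against 40.0 CPM, a ratio of 2.98 (2.22–3.92). The Col11a1 ratio was 3.72 and 4.23 under the KD and Q153R labels and 1.10 under the Ctrl label. Col25a1 was low, at 87.8 against 431 CPM (0.204, 0.145–0.279), and so was Col4a1 (0.464).

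Qrfpr, the receptor of a feeding-related peptide, marked 99 nuclei with 1 of 9 collagens called higher (0.929% of all genes). Col19a1 stood at 63.2 CPM, against 12.02 CPM elsewhere, a ratio of 5.25 (3.80–7.13). At its level elsewhere it would not have passed the limit of 10, so the call is no separate support. The ratio ranged from 1.97 under the KD label and 5.33 under the Q153R label to 8.53 under the Ctrl label. Col11a2 (0.236) and Col25a1 (0.432) were lower (3.99% of all genes). Satb1, a chromatin organizer, marked 264 nuclei with 1 of 17 called higher (0.735% of all genes), Col26a1, at 24.96 against 11.5 CPM (2.18, 1.57–2.97), and 1 lower (2.98% of all genes), Col9a3 (0.299).

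Ghr, the growth hormone receptor, marked 1622 nuclei and had 2 of 35 collagens called higher (0.845% of all genes), both of them also called in Sst nuclei: Col12a1 (3.61, 2.98–4.39) and Col23a1 (3.11, 2.47–3.93). Sst nuclei were not taken out of the Ghr set, so the sets can share nuclei and are not separate marks. Of the 4 called lower (1.9% of all genes), Col15a1 (0.359) and Col28a1 (0.357) had intervals without 1. Esr2, oestrogen receptor beta, marked 76 nuclei with 1 of 8 called higher (1.38% of all genes), Col8a1, at 41.7 against 20.3 CPM (2.06, 1.33–3.05). A single nucleus gave 42.3% of those UMIs. Col12a1 had 0 UMIs there, at least 3.71-fold lower than the 17.9 CPM elsewhere with a floor of 3 UMIs, and Col11a1, Col11a2 and Col18a1 were the others among 4 called lower (4.94% of all genes). All 10 Col18a1 UMIs came from 1 nucleus. No collagen was called higher with Zic4, Sim2, Aox3, Sema3d, Drd3 or Nkx2-2, where 0.514%, 1.11%, 1.83%, 0.428%, 0.729% and 1.16% of all genes were, and 2 to 11 collagens could be compared. Lower calls there were Col8a1 (0.0717) and Col4a1 (0.390) with Zic4 (3.31% of all genes), Col25a1 (0.410) with Sim2 (4.85%), Col18a1 (0.188) with Aox3 (7.1%) and Col19a1 (0.323) with Sema3d (2.68%), and 0 with Drd3 (5%) and Nkx2-2 (5.42%).

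**Figure D4:**
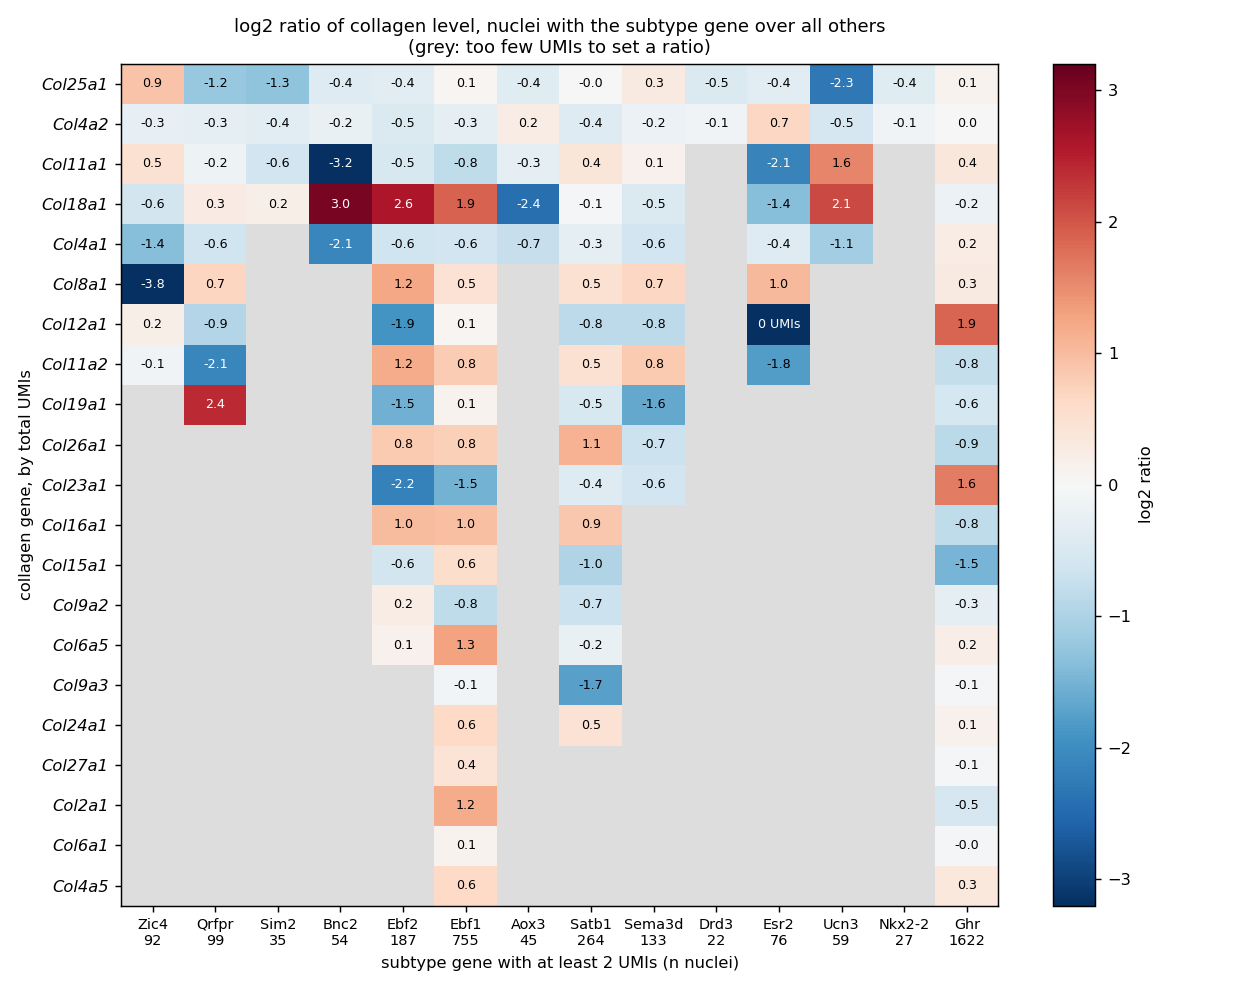
log2 ratio of the level of 21 collagens in nuclei with at least 2 UMIs of a subtype gene over all other nuclei; grey marks pairs with too few UMIs for a ratio, and the number under each gene is its n of nuclei. Col18a1 is high with Bnc2, Ebf2, Ebf1 and Ucn3 and low with Aox3 and Esr2.

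Nuclei with non-neuronal markers, 143 in all with a median of 2400 UMIs, held collagens at other levels. Col11a2 stood at 57.1, Col9a3 at 51.9, Col4a5 at 49.3, Col5a2 at 44.1, Col9a1 and Col23a1 at 36.3 each and Col27a1 at 31.1 CPM in them. Col11a1 stood at 41.5 CPM, near its 41.3 CPM over all nuclei, while Col25a1 was at 18.2 CPM and Col18a1 had no UMI. Astrocyte and oligodendrocyte markers made up most of their marker UMIs, at 2584 and 6433 CPM.

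Between pools, collagens were compared within strata of class, since the pools differ in their mix of neurons. They also differ in other cells: 47, 21 and 75 nuclei under KD, Q153R and Ctrl had non-neuronal markers, and oligodendrocyte markers summed to 161, 84.9 and 178 CPM. Without these nuclei, a comparison added after the data were seen, Col23a1 had ratios of 0.447 for KD and 0.648 for Q153R, Col27a1 of 0.362 and Col5a2 of 2.59 for KD, and all 11 ratios called with an interval without 1 stayed past the call. A collagen was called at a stratified ratio of 1.5 or more, or of its inverse or less. For KD over Ctrl, 34 collagens were compared, of which 4 were called higher (3.18% of all genes tested) and 6 lower (3.85% of all genes), with a median log2 ratio of -0.10 against -0.04 over all genes. For Q153R over Ctrl, 31 were compared, with 2 higher (2.56% of all genes) and 4 lower (5.36% of all genes), and medians of -0.08 and -0.03. Both comparisons share the Ctrl-labelled nuclei. A gene was compared where its UMIs over both pools, times the share of the smaller pool, came to at least 10. Col6a3, Col6a6 and Col4a6 passed this limit only through their KD UMIs, and Col6a4 only through its Q153R UMIs. Those higher calls are thus no support for a difference.

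Col23a1 was lower under both labels, at 6.88 CPM in KD-labelled and 9.92 CPM in Q153R-labelled nuclei, against 16.8 CPM in Ctrl-labelled nuclei. The stratified ratios were 0.442 (0.329–0.595) and 0.624 (0.480–0.810). In Sst nuclei of no other class it stood at 36.1 CPM (18.7–63.1) under KD and 50.7 CPM (30.5–79.1) under Q153R, against 89.9 CPM (66.9–118) under Ctrl, so that KD and Ctrl did not overlap. Oxt nuclei had the same order, as given above. In nuclei of no class it stood at 6.32 and 6.05 CPM, against 11.7 CPM. The Q153R ratio fell short of the call, at 0.679 to 0.724, among nuclei with a Sim1 UMI, nuclei with at least 3 Xist UMIs and no Y-linked UMI, and nuclei with at least 5000 UMIs.

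Col12a1 was lower under the KD label, at 10.3 CPM, with 19.3 CPM under Q153R, against 21.6 CPM under Ctrl. The stratified KD ratio was 0.547 (0.428–0.699). In Sst nuclei of no other class it stood at 117 CPM (83.5–161) under KD and 208 CPM (164–260) under Q153R, against 229 CPM (191–272) under Ctrl, and 35.9%, 42.9% and 49.1% of these nuclei held a UMI. KD-labelled Sst nuclei were thus separated from both other labels.

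Other collagens called lower came from several families. The fibrillar Col24a1 stood at 4.67 CPM under KD and 5.65 CPM under Q153R, against 9.06 CPM under Ctrl, with ratios of 0.491 (0.340–0.710) and 0.603 (0.426–0.854). The KD ratio was 0.713 in nuclei with Xist and no Y-linked UMI, and the Q153R ratio was 0.752 without nuclei that resembled doublets, neither past the call. Col27a1, also fibrillar, stood at 2.10 CPM under KD and 5.27 CPM under Q153R, against 5.24 CPM under Ctrl, and its KD ratio was 0.381 (0.223–0.651). Col6a5 was lower under KD (0.551, 0.378–0.802), and Col22a1, a fibril-associated collagen of tissue junctions, was lower under Q153R (0.452, 0.227–0.897) on 11 UMIs, against 34 under Ctrl. Col14a1 was called lower in both with intervals that include 1.

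Values called higher rested on few UMIs, and all but Col5a2 and Col28a1 passed the limit on UMIs only through the pool in which they were high. Under KD these were Col6a3 with 18 UMIs, against 8 under Ctrl (3.09, 1.31–7.27), Col6a6 with 17 against 11 (2.29, 1.04–5.01), Col5a2 with 28 against 17 (2.0002, 1.11–3.61), and Col4a6, whose interval includes 1. The Col6a6 ratio was 1.14 in nuclei with Xist and no Y-linked UMI. Under Q153R, Col28a1 and Col6a4 were called with intervals that include 1. Col8a1 had a Q153R ratio of 1.42 (1.17–1.73), short of the call, and stood at 152.7 CPM (110–206) in Q153R-labelled Oxt nuclei of no other class, against 89.5 CPM (65.0–120) in Ctrl-labelled ones.

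For the most abundant collagens the stratified ratios lay between 0.837 and 1.12, while some single classes lay past the call. Col25a1 had stratified ratios of 0.996 (0.953–1.04) and 1.12 (1.07–1.17) for KD and Q153R over Ctrl. Col4a1 had 1.06 (0.917–1.22) and 1.08 (0.929–1.25), Col4a2 0.971 (0.886–1.06) and 1.01 (0.917–1.11), and Col18a1 1.07 (0.928–1.23) and 1.10 (0.958–1.27). Col11a1 had 0.837 (0.728–0.962), with an interval below 1, and 0.923 (0.803–1.06). These intervals hold no ratio past the call. Within classes, ratios past 1.5 or its inverse with an interval without 1 were, for KD over Ctrl, Col4a1 in Trh nuclei (2.67, 1.16–6.36, on 16 and 11 UMIs) and Col4a2 in Sst nuclei (0.549, 0.304–0.948), beside Col25a1 in Avp (1.57) and Crh nuclei (0.522). For Q153R over Ctrl they were Col18a1 in Trh nuclei (2.39, 1.57–3.69), Col4a1 in GABA nuclei (2.26, 1.33–3.76), Col4a2 in Sst nuclei (0.567, 0.326–0.952) and Col25a1 in nuclei of several classes (0.298, 0.191–0.446). In nuclei of no class, the KD ratio of Col11a1 was also past the call, at 0.632 (0.522–0.762).

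**Figure D5:**
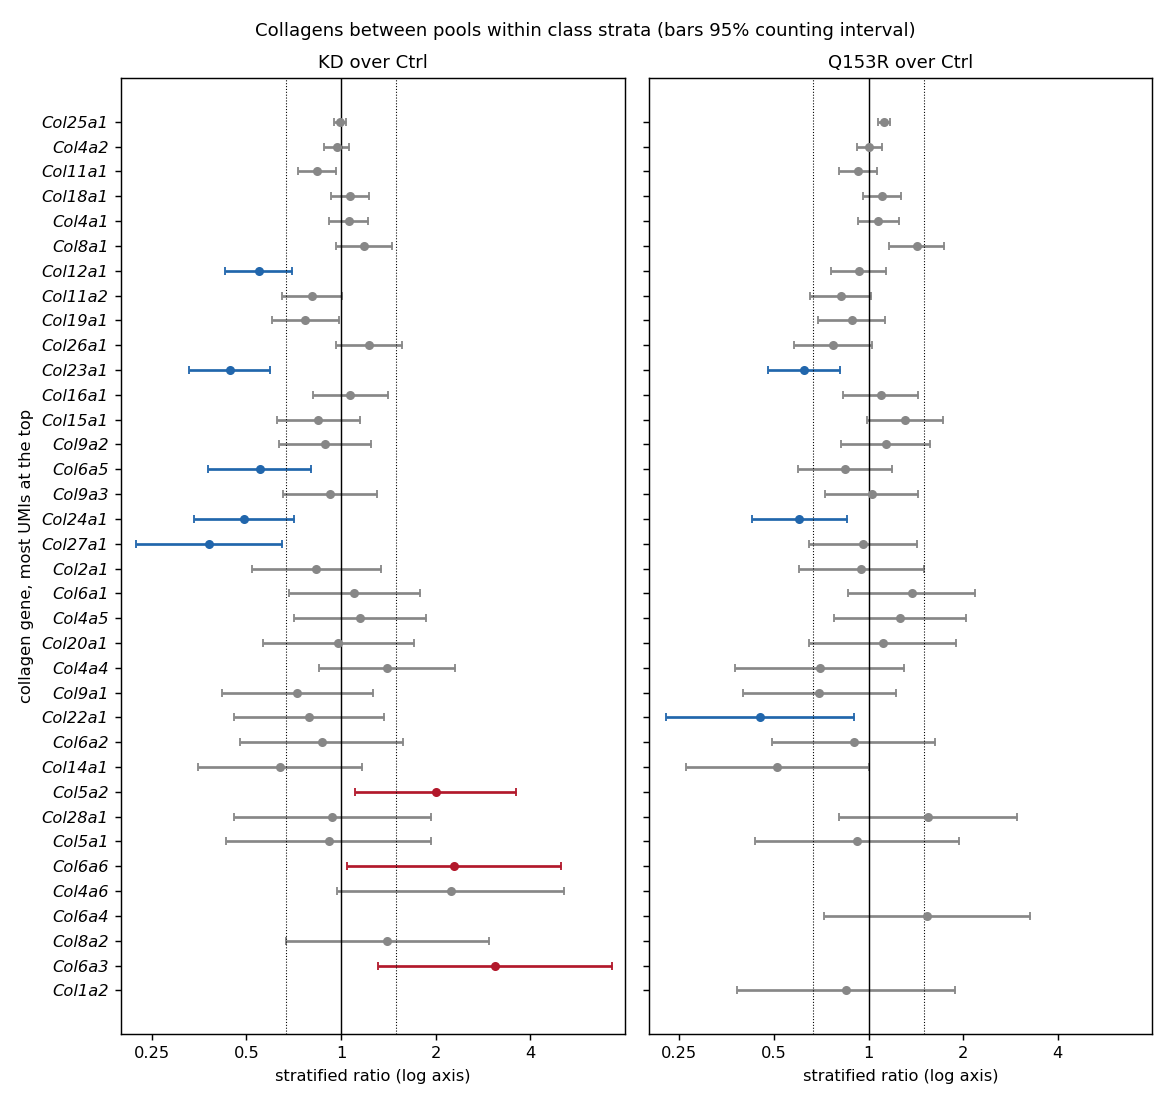
Stratified ratio (log axis) of each compared collagen for KD over Ctrl and Q153R over Ctrl, with 95% intervals; dotted lines mark the call at 1.5 and its inverse. Blue and red mark collagens called lower and higher with an interval without 1, such as Col23a1 in both panels, and grey marks all others.

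The pools differ in sex: 80.8%, 47.8% and 65.0% of KD-, Q153R- and Ctrl-labelled nuclei had at least 3 Xist UMIs and no UMI of 4 Y-linked genes, and 3.34%, 27.5% and 14.8% had at least 2 Y-linked UMIs. Col4a1 was higher in nuclei with Xist under every label, with stratified ratios of 2.79 (1.22–6.36), 1.84 (1.37–2.48) and 1.42 (1.06–1.901) over nuclei with Y-linked UMIs, the first on 6 UMIs in 45 KD-labelled nuclei with Y-linked UMIs. Other ratios with an interval without 1 were not alike under the labels: Col25a1 had 1.82 (1.497–2.21) under KD, 0.948 under Q153R and 1.26 (1.16–1.37) under Ctrl, under Q153R Col4a2 had 1.34 (1.12–1.59), and under Ctrl Col11a1 had 0.640 (0.513–0.798) and Col18a1 0.678 (0.533–0.861). Over all pools and strata the Col4a1 ratio was 1.69 (1.38–2.07), on 788 and 122 UMIs, and that of Col4a2 was 1.19 (1.06–1.34). The X-linked chains Col4a5 (1.23, 0.721–2.11) and Col4a6 (2.59, 0.473–14.2) had too few UMIs to place. How many mice of each sex a pool held is not given in the sources used here, so sex and mouse cannot be told apart.

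Genes that work with collagens were taken from 5 lists of 75 genes in all. Crh neurons had 3 of 33 compared called higher and 4 lower, where 3.83% and 14.4% of all genes were. Plod2, a lysyl hydroxylase that prepares collagen crosslinks, stood at 138 against 33.2 CPM (4.16, 3.47–4.96). Tll1, a protease that trims procollagen ends, stood at 98.9 against 29.9 CPM (3.31, 2.67–4.05), and Adgrg1, an adhesion receptor that binds collagen III in the mouse, at 54.1 against 21.03 CPM (2.57, 1.93–3.37). Of the laminins, nidogens and other basement membrane genes, 3 of 15 could be compared in Crh nuclei and 0 were called.

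The other classes had at most 1 partner gene called higher. In Avp nuclei this was Colgalt2, a collagen galactosyltransferase (2.64, 1.74–3.87), while 10 of 36 were lower (2.4% and 9.84% of all genes), among them Adamts3 and Adamts2, which remove the amino-terminal ends of procollagens (0.105 and 0.138), and the protease inhibitor Timp3 (0.138). In Oxt nuclei it was Mmp16, a membrane-bound protease (2.10, 1.97–2.24), and 7 of 34 were lower, with Tll1 at 0.101 (2.71% and 6.45% of all genes). Trh nuclei had Lamb1, a laminin chain (3.19, 2.28–4.38), and 0 of 45 lower (0.911% and 2.48% of all genes). GABA nuclei had Adamts3 (2.17, 1.73–2.71) and 1 of 45 lower (0.629% and 2.6% of all genes). Sst nuclei had 0 of 39 higher and 5 lower (1.33% and 5.45% of all genes). Between pools, 1 of 59 was higher and 5 were lower in each comparison with Ctrl, where 3.18% and 3.85% of all genes were for KD and 2.56% and 5.36% for Q153R. Adgrg6, a type IV collagen receptor, was higher (3.19, 1.65–6.16) and P4ha2, a prolyl hydroxylase subunit, lower (0.658, 0.523–0.828) for KD over Ctrl. For Q153R over Ctrl, Lamb3 was higher (1.65, 1.16–2.36), and Lama3 was lower in both (0.584 and 0.545).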

How the data were processed

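The deposited matrix holds raw UMI counts for each barcode, over 31053 genes and 3 hashtags. The submitters' processing notes give Cell Ranger 6.0.0 and mm10; Cell Ranger 7.0.0 stands in the header of the matrix. Which annotation, strand and introns were counted is not given in the sources used here. Spans of genes were read from GENCODE vM21 on GRCm38.

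Kept barcodes had 500 or more genes and less than 5% mitochondrial UMIs, and a hashtag was called at 61 (KD), 37 (Q153R) or 105 (Ctrl) UMIs. The 4904 nuclei with exactly 1 hashtag held 27791629 UMIs (565 to 29974 each); 1124 nuclei with several hashtags were left out as doublets. Within-pool doublets remained and were treated in an alternative. The hashtag library has no file of its own and was not analysed here.

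Levels are summed UMIs per 1000000 with exact Poisson intervals; ratios have exact conditional binomial intervals. Between pools, Mantel-Haenszel ratios with Greenland-Robins intervals were taken over 8 strata: the 6 classes (nuclei of exactly 1), several and none. Shares have Clopper-Pearson intervals after each nucleus was thinned to 2338 UMIs, the 10th percentile, which left out 491 shallower nuclei. Ratios were also run on simulated Poisson counts with known changes. Those counts hold no spread between nuclei or mice, so they cannot show whether the intervals cover it. Collagens with at least 100 UMIs, and up to 8 called ones per class, 10 per pool and 4 per subtype gene, whose interval excludes 1, were to be named; others named below these limits were chosen after their values were seen. Alternatives changed library size, thresholds, depth, filters and doublets. The members, gene lists and subtype genes were chosen with earlier results of these data known. Python 3.11.15, numpy 2.4.6, scipy 1.17.1, pandas 2.3.3, scikit-learn 1.9.0 and scanpy 1.11.5 were used.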

Additional observations from a re-analysis of the deposited data

Results flagged for a closer look

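Ratios of KD over Ctrl ran in opposite directions between classes for 4 collagens, with 95% intervals that exclude 1 on both sides. The difference between classes was not tested. The share of all genes with such opposite ratios was not computed, so no trait of collagens is read from the 4. Col12a1 had a ratio of 5.66 (1.46–32.0) in GABA nuclei, on 10 and 3 UMIs in KD- and Ctrl-labelled nuclei, of which 1 nucleus gave 6, against 0.513 (0.349–0.738) in Sst nuclei and 0.468 (0.303–0.708) in nuclei of no class. Col25a1 had ratios of 1.57 (1.05–2.35) in Avp, 1.35 (1.05–1.73) in Trh and 1.22 (1.05–1.41) in Sst nuclei, and of 0.522 (0.359–0.746) in Crh nuclei, on 43 UMIs in KD-labelled and 118 in Ctrl-labelled nuclei. Col11a1 had 1.497 (1.01–2.21) in GABA nuclei and 0.632 (0.522–0.762) in nuclei of no class. Col26a1 had 1.499 (1.14–1.98) in nuclei of no class and 0.232 (0.0444–0.771) in GABA nuclei, on 3 and 22 UMIs.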

How the results depend on the processing

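No paired analysis was possible because the labels give 1 library and no replicate numbers. All values rest on 1 pool of mice per label. Of 172 recomputed counts of collagens called higher or lower, 110 stayed within 1.5 times. The share of all genes called was computed for the main setting and for nuclei of exactly 1 class alone. Counts under the other alternatives show how the calls move with the setting. They cannot be set against all genes and are not read as a trait of collagens. Within a single label, an alternative added after the data were seen in which fewer UMIs let fewer genes be compared, counts for KD, Q153R and Ctrl were 0, 0 and 0 higher and 2, 4 and 3 lower in Oxt nuclei, 2, 2 and 2 lower in Avp nuclei, 0, 1 and 2 lower in Crh nuclei, 0, 1 and 0 higher and 0, 3 and 5 lower in Trh nuclei, 2, 1 and 3 higher and 1, 2 and 1 lower in Sst nuclei, and 1, 1 and 1 higher and 3, 0 and 5 lower in GABA nuclei. Without a filter on low counts, where genes with single UMIs count, collagens higher and lower were 4 and 23 in Oxt, 1 and 25 in Avp, 7 and 11 in Trh and 3 and 15 in GABA nuclei, 21 lower in Crh and 17 lower in Sst nuclei, 7 and 10 for KD over Ctrl and 4 and 8 for Q153R over Ctrl. With nuclei of exactly 1 class against the other 5, 5 were lower in Oxt (5.94% of all genes), 3 in Crh (15.1%), 5 in Trh (3.4%) and 2 in Sst nuclei (5.33%). There 3 each were higher in Trh (2.57% of all genes) and GABA nuclei (2.04%). In this alternative the nuclei of no class are left out of the base. At doubled thresholds 1 was lower in Crh and 2 were higher in Sst nuclei, and with at least 5000 UMIs 1 was lower in Crh nuclei; the cause was not tested. In Trh nuclei 5 were lower by mean CPM over nuclei, 6 without the top nucleus of each gene and 5 without 583 implied within-pool doublets, which also left 1 higher each in Trh and GABA nuclei. The 4 collagens higher for KD over Ctrl became 0 with a Sim1 UMI, 1 with stricter hashtag thresholds or without implied doublets, and 2 in Xist nuclei, with at least 5000 UMIs, without GABA nuclei or without the top nucleus. The 2 for Q153R over Ctrl became 0 with stricter hashtags or without the top nucleus and 1 without implied doublets. Of 539 recomputed ratios, 464 lay within the main interval, 72 outside it, and 3 turned round within a single label: Col23a1 in KD-labelled Oxt nuclei (0), Col19a1 in Q153R-labelled Crh nuclei (1.09) and Col12a1 in KD-labelled GABA nuclei (1.37). The 464 include every ratio without a filter on low counts, a setting that cannot change a ratio. The marks Col12a1 in Sst (17.1 to 34.0), Col8a1 in Oxt (5.33 to 8.87) and Col4a1 in Crh nuclei (4.14 to 4.87) kept their call under the 8 alternatives other than single labels. Of these 8, the setting without a filter was bound to keep it. The Col12a1 ratio of 34.0, against the other 5 classes, passed the limit only through its Sst UMIs. A second thinning seed left all 8 shares within their intervals.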
